A study of Homo sapiens with 2 samples.

Results

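The 5 GATA transcription factor genes GATA2, GATA3, GATA4, GATA5 and GATA6 were examined for chromatin accessibility before and after PRC2 inhibition. They were taken by name, as 5 of 20162 protein-coding genes. Their peaks were those within 3 kb of any annotated transcription start site (TSS), inside the gene, or within 50 kb on either side. Together these loci held 62 of the 114060 DMSO peaks and 120 of the 161184 MAK683 peaks. The cells were G401, an established malignant rhabdoid tumor line with SMARCB1 deficiency. Both libraries came from this 1 line and were prepared by ATAC-seq, an assay that uses the Tn5 transposase to cut accessible DNA and tag the cut ends for sequencing. One culture received DMSO, the solvent, for 3 days. The other received MAK683 for 3 days, a compound that binds the EED subunit of PRC2 and blocks methylation of histone H3 at lysine 27. The text accompanying the samples gives 3 µM for MAK683 in this line. The labels name 1 replicate per group, so no p-value was computed, and all differences below are between these 2 libraries.

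GATA factors are zinc finger proteins that bind DNA at sites with the letters GATA. GATA2 and GATA3 are best known from blood, where GATA2 serves blood stem and progenitor cells and GATA3 directs T cell fate. GATA3 also acts in the nephric duct of the developing kidney. GATA4, GATA5 and GATA6 act in heart and in organs that arise from endoderm, and GATA4 is also known as a regulator of the secretory program of senescent cells. Developmental regulators of this kind are typical targets of PRC2, whose H3K27me3 mark keeps them silent in cells of other lineages.

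The DNA under the promoter summits is shown first, because those of GATA2 and GATA3 in the DMSO library shared a sequence feature. It was not seen in the fewer bases shown for GATA6. A summit is the base where the most tags piled up. The windows reach 60 bases to either side of a summit and are read from the GRCh37 genome on the strand of the gene. Bases of an untranslated region were left out. The windows shown therefore hold 121 bases at GATA2, 105 at GATA3 in DMSO, 121 at GATA3 in MAK683 and 77 at GATA6. The capitals mark CCAAT boxes on either strand (CCAAT or ATTGG), a common promoter element. Of the 5 members, GATA2, GATA3 and GATA6 are shown: for GATA2 at the DMSO summit (chr3:128206794-128206914, minus strand), for GATA3 at the DMSO summit (chr10:8095462-8095566, plus strand) and at the different summit of the MAK683 library (chr10:8088850-8088970, plus strand), and for GATA6 at the DMSO summit (chr18:19749473-19749549, plus strand).
GATA2, DMSO: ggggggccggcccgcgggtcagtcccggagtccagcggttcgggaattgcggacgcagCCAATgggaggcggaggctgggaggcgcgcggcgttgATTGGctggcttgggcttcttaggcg
GATA3, DMSO: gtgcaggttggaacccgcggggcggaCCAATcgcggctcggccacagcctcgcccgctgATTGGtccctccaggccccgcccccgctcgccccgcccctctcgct
GATA3, MAK683: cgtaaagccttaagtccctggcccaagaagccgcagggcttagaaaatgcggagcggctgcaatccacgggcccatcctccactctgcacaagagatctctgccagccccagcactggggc
GATA6, DMSO: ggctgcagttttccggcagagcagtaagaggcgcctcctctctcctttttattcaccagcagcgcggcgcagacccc

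The GATA2 and GATA3 windows of the DMSO library each held 2 CCAAT boxes, one on each strand. The boxes started 37 bases apart at GATA2 and 33 bases apart at GATA3. Among the tallest promoter peaks of all protein-coding genes in the DMSO library, 4.84% held 2 or more such boxes in 121 bases and 19.5% held at least 1. The GATA6 window, of only 77 bases, and the MAK683 window of GATA3 held none. GC content was 71.9% at GATA2, 76.2% at GATA3 (DMSO) and 61.2% at GATA3 (MAK683). No window held a GATA motif, searched on both strands as GATA with A or T before it and A or G after it, and such a motif lay in 4.47% of the promoter peaks of the DMSO library. The search for CCAAT boxes was chosen after the sequences had been seen.

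After filtering, 16598348 DMSO tags and 18265284 MAK683 tags were left. Peak heights are given as tags at the summit and as tags per 1000000 filtered tags (RPM). A height of 1 tag equals 0.0602 RPM in DMSO and 0.0547 RPM in MAK683. Peaks started at 6 tags in both libraries, and the median peak had 11 tags in DMSO and 10 in MAK683, so most peaks rest on few tags. Intervals are at the 95% level and cover counting error only. They treat tags as independent, although PCR copies could not be told from separate molecules by an identifier. No peak lay at the SMARCB1 promoter in either library. VIM, a mesenchymal marker, had 44 tags in DMSO and 41 in MAK683, and the kidney regulator PAX2 had 33 in both. WT1 had 9 and 14 tags. Markers of other cell types also carried peaks: EPCAM of epithelia with 31 and 20 tags, and PTPRC of leukocytes with 15 and 12. In RPM these 2 were lower in MAK683, but both intervals included 0. The log2 ratio of MAK683 over DMSO was -0.77 (-1.58 to 0.04) at EPCAM and -0.46 (-1.56 to 0.64) at PTPRC. VIM at -0.24 and PAX2 at -0.14 were also lower, whereas WT1 was higher at 0.50. Of 16946 protein-coding promoters with a peak, 13291 were lower. The part of EPCAM and PTPRC in the results below was not tested.

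Promoter height was compared first, to ask whether blocking PRC2 changed the opening of the start sites. The tallest peak that touched the 3 kb around any TSS gave the height of a gene. All 5 GATA genes had a promoter peak in both libraries, as did 74.7% of protein-coding genes. GATA4 and GATA5 were higher in MAK683, whereas GATA2, GATA3 and GATA6 were lower. This 2 of 5 stands beside 21.5% of 16946 protein-coding genes that were higher. The direction of GATA5 turned with the window: within 1 kb of its TSS its log2 ratio was -0.58, with the MAK683 library set to the lowest called height, which left 1 of 5 higher. No GATA gene was 2-fold higher, against 3.25% of all genes, and none was 2-fold lower, against 5.21%. The median log2 ratio of MAK683 over DMSO was -0.14 for the 5 members and -0.42 for all genes with a peak. Every one of the 5 intervals included 0, so against equal RPM the height of the tallest promoter peak differed beyond counting error at no member. For GATA3 the tallest peaks of the libraries lay at different places, so its ratio does not compare the same site. Its start sites are compared singly below. When the median of all shared regions (-0.33) was subtracted, GATA3 also became higher, which made 3 of 5. GATA4 then stood at 1.19, and the lower end of its interval before subtraction (-0.29) lay above that median. The statement that no member differed therefore depends on the scaling at GATA4.

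**Figure D1:**
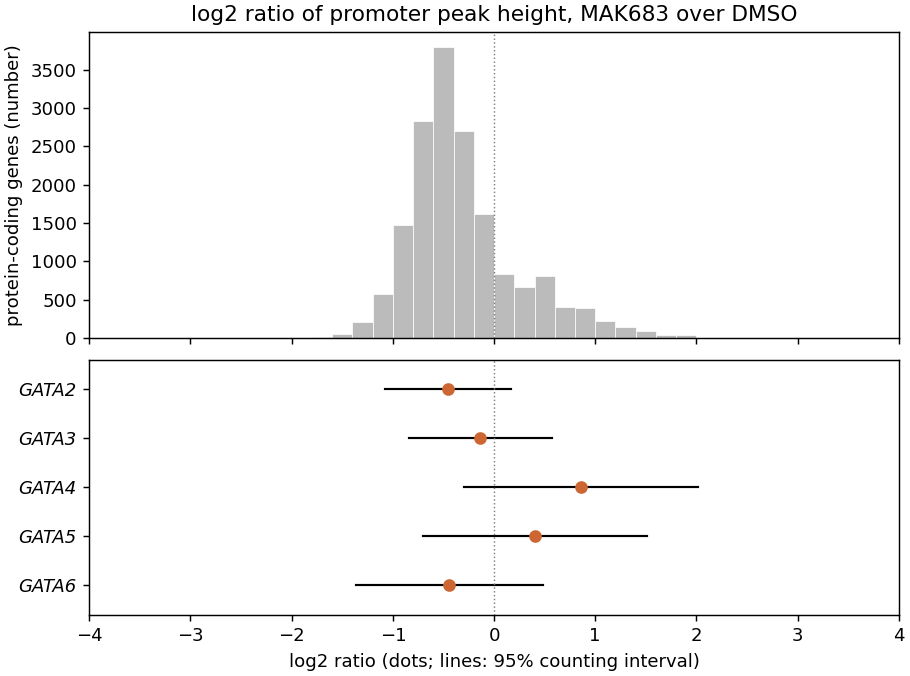
The upper panel is a histogram of the log2 ratio of promoter peak height (MAK683 over DMSO, horizontal axis) for 16946 protein-coding genes, and the lower panel gives the 5 GATA genes as dots with 95% counting intervals as lines. GATA4 at 0.86 lies farthest right, GATA2 at -0.45 farthest left, and every line crosses 0. The GATA3 dot compares peaks at different places.

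GATA2 (ENSG00000179348, chr3:128198270-128212044, minus strand) had the tallest promoter peak of the family in both libraries. It reached 46 tags in DMSO, which is 2.77 RPM (2.03 to 3.70), and 37 tags in MAK683, which is 2.03 RPM (1.43 to 2.79). The log2 ratio was -0.45 (-1.08 to 0.17), at percentile 46.6 of all promoters. The summits of the libraries lay 95 and 76 bases upstream of an internal TSS, in an intron of the longer transcripts, and this is the site with the paired CCAAT boxes. What differed more was the breadth of the open domain. In DMSO a single peak of 6240 bp ran from 128205436 to 128211675 and ended just short of the canonical TSS at 128212044. In MAK683 the same stretch held 3 peaks. The one at the summit covered 128205545 to 128208608, and another, of 12 tags, covered 128210013 to 128210640. Peaks covered 73.1% of the 17.3 kb within 3 kb of a GATA2 TSS in DMSO and 39.0% in MAK683. That change of -34.1 percentage points lay at percentile 0.446 of all genes with a peak there, whose median change was -2.34 points. Near the canonical TSS, the tallest MAK683 peak within 1 kb held 10 tags. GATA2-AS1, the antisense transcript, starts in the same window and was assigned the same peaks, and accessibility of the genes on the 2 strands cannot be told apart.

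GATA3 (ENSG00000107485, chr10:8087341-8117161, plus strand) had equal tag numbers at its tallest promoter peak, but at different places. The height was 32 tags in both libraries, which is 1.93 RPM (1.32 to 2.72) in DMSO and 1.75 RPM (1.20 to 2.47) in MAK683, with a log2 ratio of -0.14 (-0.84 to 0.57). The DMSO summit at 8095522 lay 45 bases upstream of a TSS near the canonical one at 8096651. The MAK683 summit at 8088910 lay 1569 bases inside the gene from the most upstream TSS at 8087341. Each TSS was therefore also compared by itself, with the tallest peak that touched the 1 kb around it. At the upstream TSS the height was 14 tags in DMSO and 32 in MAK683, a log2 ratio of 1.05 (0.15 to 1.96). The DMSO summit lay at 8087368, whereas the MAK683 summit at 8088910 lay outside that 1 kb in a broad peak that reached it. This ratio, too, does not compare the same site. At the canonical TSS it was 32 and 27 tags, a log2 ratio of -0.38 (-1.12 to 0.36), with the MAK683 summit farther upstream at 8093880 in a broad peak. At the TSS at 8100362 no DMSO peak was called and the MAK683 peak held 14 tags. Of the 4 TSS groups of GATA3, the upstream one was thus the only one whose interval stayed above 0, though between different summits. The canonical ones did not differ beyond counting error.

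Farther upstream lay the region with the largest ratio of any shared region at the 5 loci. At chr10:8083440-8085931, with the MAK683 summit 2093 bases upstream of the upstream TSS, the height was 7 tags (0.422 RPM) in DMSO and 29 tags (1.59 RPM) in MAK683. The log2 ratio was 1.91 (0.72 to 3.10), an interval that takes no account of the choice of the largest ratio. The DMSO summit lay at 8084189 and the MAK683 summit at 8085248, so different sites within the region were compared. Peaks covered 37.6% of the 16.8 kb within 3 kb of a GATA3 TSS in DMSO and 83.1% in MAK683. That gain of 45.5 percentage points lay at percentile 99.5 of all genes. GATA3-AS1 shares the canonical promoter peak and had the same 32 and 27 tags.

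GATA4 (ENSG00000136574, chr8:11534468-11617511, plus strand) had the lowest promoter peak of the family in DMSO. Its height was 9 tags in DMSO, which is 0.542 RPM (0.248 to 1.03), and 18 tags in MAK683, which is 0.985 RPM (0.584 to 1.56). The log2 ratio was 0.86 (-0.29 to 2.02), at percentile 95.2 of all promoters. Both summits lay at the canonical TSS, within 21 bases of an annotated start. Within 1 kb of the other start sites of this long gene, peaks were called in MAK683 only or in neither library. At the most upstream TSS at 11534468, no DMSO peak was called and the MAK683 peak held 10 tags. At the TSS at 11550135 the MAK683 peak held 12 tags and DMSO had none. Farther from the most upstream TSS, but within 3 kb of it, a region shared by both libraries had 8 tags in DMSO and 12 in MAK683. Peaks covered 4.69% of the 24.1 kb within 3 kb of a GATA4 TSS in DMSO and 38.0% in MAK683, a gain of 33.3 percentage points at percentile 98.6 of all genes.

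GATA5 (ENSG00000130700, chr20:61038553-61051051, minus strand) has 1 annotated TSS, and the peaks beside that TSS were called in DMSO only. The tallest peak within 3 kb lay in an exon of the noncoding gene ENSG00000272050, 459 bases from the TSS of that gene. It held 11 tags in DMSO, which is 0.663 RPM (0.331 to 1.19), and 16 tags in MAK683, which is 0.876 RPM (0.501 to 1.42). The log2 ratio was 0.40 (-0.71 to 1.51), at percentile 87.3 of all promoters. At the GATA5 TSS itself, DMSO had 2 small peaks of 9 tags each at 61051055 to 61051370 and 61051671 to 61051875. MAK683 had no peak within 1 kb. Peaks covered 22.0% of the promoter window in DMSO and 7.75% in MAK683, a change at percentile 9.58 of all genes.

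GATA6 (ENSG00000141448, chr18:19749550-19782491, plus strand) had a single shared promoter region at its canonical TSS. Its height was 21 tags in DMSO, which is 1.27 RPM (0.783 to 1.93), and 17 tags in MAK683, which is 0.931 RPM (0.542 to 1.49). The log2 ratio was -0.44 (-1.37 to 0.48), close to that of the median promoter at percentile 47.7. GATA6-AS1 starts on the other strand beside this TSS and was assigned the same peaks. The covered share of the window was 24.4% in DMSO and 41.5% in MAK683, at percentile 94.9 of all genes.

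**Figure D2:**
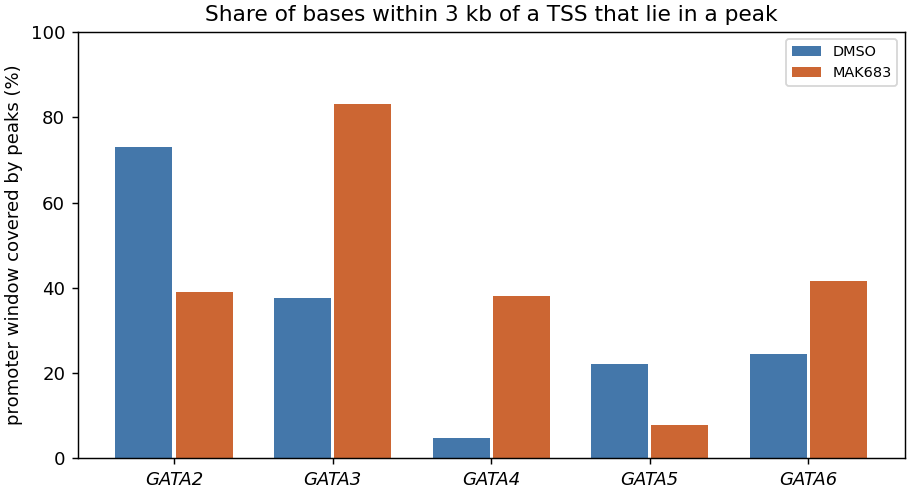
Bars give the percent of bases within 3 kb of any TSS of a GATA gene (vertical axis) that lay in a called peak, for the DMSO and the MAK683 library. The MAK683 bar is above the DMSO bar at GATA3, GATA4 and GATA6 and below it at GATA2 and GATA5.

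In order of promoter height in DMSO the genes stood as GATA2, GATA3, GATA6, GATA5 and GATA4, and the intervals of neighbours in that order overlapped. In MAK683 the order was GATA2, GATA3, GATA4, GATA6 and GATA5, with overlapping intervals again. Covered share and gene body share were added after the promoter heights had been seen, as was the split by TSS.

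The number of peaks over each locus, from 50 kb upstream to 50 kb downstream of the gene, differed more than promoter height did. GATA2 had 26 peaks in DMSO and 27 in MAK683. GATA3 had 12 and 32, and GATA4 had 13 and 43. GATA3 and GATA4 thus held most of the added peaks of the family. GATA5 had 9 and 12 peaks. GATA6, with the fewest peaks, had 2 and 6. At GATA3, GATA4 and GATA6 there were at least 2 times as many peaks in MAK683, which was the case at 21.5% of 18503 loci of protein-coding genes with a DMSO peak. Among the 10411 loci with 10 or more DMSO peaks, a limit set after the values had been seen, the share was 2.54%, and of the 3 GATA loci with that many peaks, GATA3 and GATA4 belonged to it. Covered length went from 8.86 to 33.1 kb at GATA3 and from 13.0 to 31.8 kb at GATA4. At GATA2 it went from 28.8 to 21.2 kb, in 26 and 27 peaks.

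The surroundings of GATA3 and GATA4 also had more peaks in MAK683. Between the locus and 1 Mb to either side, a window chosen after the locus counts were seen, the GATA3 surroundings had 20 peaks in DMSO and 85 in MAK683, a ratio of 4.25. The GATA4 surroundings had 68 and 214, a ratio of 3.15. The loci themselves had ratios of 2.67 at GATA3 and 3.31 at GATA4, so the added peaks were not limited to the 50 kb around these genes. The ratios over whole chromosomes 10 and 8 were 1.42 and 1.82. The surroundings of GATA2 went the other way, with 210 and 148 peaks, and those of GATA5 had 228 and 222. Around GATA6 there were 77 and 68 peaks, a ratio of 0.883, whereas the GATA6 locus had a ratio of 3.00 from 2 and 6 peaks and chromosome 18 one of 2.12. The loci of GATA3 and GATA4 were denser than their surroundings in both libraries. In MAK683 there were 24.6 against 4.47 peaks per 100 kb at GATA3 and 23.5 against 11.3 at GATA4. In DMSO the GATA3 locus had 9.24 against 1.05 and the GATA4 locus 7.1 against 3.58. Peaks were called against 1 background level for the whole genome, and read coverage was not analysed here, so a difference in regional coverage between the libraries, such as from copy number, cannot be told apart from a difference in accessibility in these counts.

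**Figure D3:**
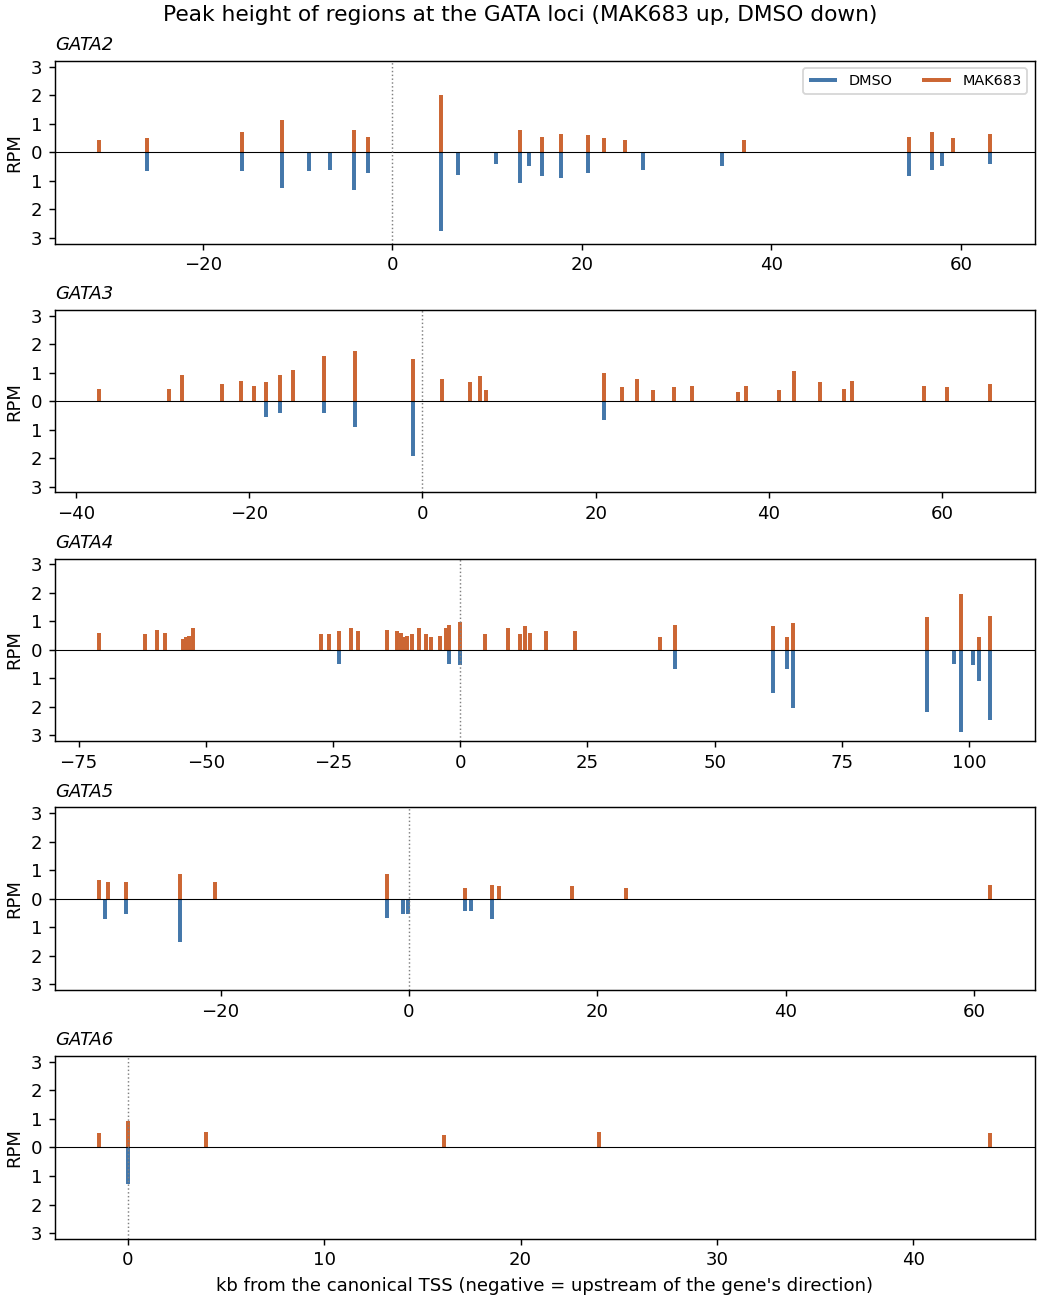
Each panel is 1 GATA locus, with distance from the canonical TSS in kb (negative is upstream) on the horizontal axis and peak height in RPM on the vertical axis. Bars above the line are MAK683 peaks and bars below it are DMSO peaks, 1 bar per library and merged region, and they show MAK683 peaks along most of the GATA3 and GATA4 loci where few DMSO peaks lie.

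Overlapping peaks of the libraries were merged into 124 regions at the 5 loci, of 199510 in the genome. Of these, 36 held a peak in both libraries, 14 in DMSO only and 74 in MAK683 only. MAK683-only regions made up 59.7% (Wilson interval 50.9 to 67.9) at the GATA loci and 45.9% in the genome. That interval counts neighbouring regions as independent and does not cover variation between loci or cultures, so it is no test against the genome share. DMSO-only regions made up 11.3% at the loci and 25.1% in the genome. The members differed among themselves. At GATA3, 26 of 32 regions were MAK683-only and none was DMSO-only. At GATA4, 31 of 44 were MAK683-only and 2 were DMSO-only. GATA2 was different, with 5 MAK683-only and 8 DMSO-only among 26 regions. GATA5 had 7 and 4 of 16 regions, and GATA6 had 5 and 0 of 6.

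**Figure D4:**
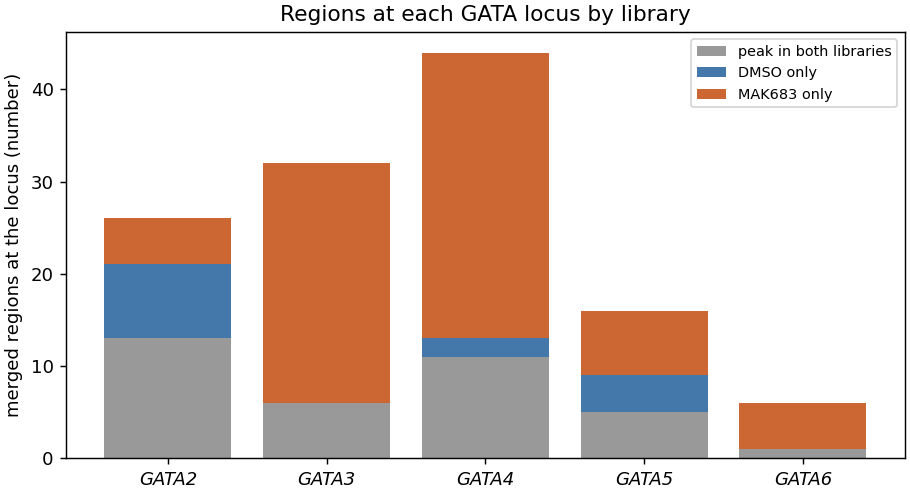
Stacked bars give the number of merged regions at each GATA locus (vertical axis) with a peak in both libraries, in DMSO only or in MAK683 only. MAK683-only regions make up most of the GATA3, GATA4 and GATA6 bars and 5 of 26 regions at GATA2.

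The added regions had different positions at each gene. At GATA4 they ran through the gene: the gene itself contained 4 DMSO peaks and 27 MAK683 peaks, covering 2.16% and 22.2% of its 83.0 kb, a gain at percentile 97.9 of all genes. The flank upstream of GATA4 had 0 and 8 peaks. The tallest MAK683-only region at GATA4 held 15 tags (chr8:11573905-11574670, in an intron). At GATA3 the added regions lay mostly outside the gene, with 1 DMSO peak and 15 MAK683 peaks in the downstream flank, and 3 and 9 in the upstream flank. The tallest MAK683-only region at GATA3 held 20 tags (chr10:8081019-8081891), 5560 bases upstream of the most upstream TSS. At GATA2 the tallest DMSO-only region held 13 tags (chr3:128204639-128205257) with its summit in a coding exon. The tallest MAK683-only regions of GATA2, at 9 tags, and of GATA6, at 10 tags, were no taller than the median peak of that library. At GATA5 the tallest DMSO-only and MAK683-only regions held 12 tags each and lay side by side upstream of the gene, at chr20:61083139-61083710 and chr20:61083763-61084037.

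Most of the added peaks were weak. With peaks of −log10 q of 10 or more, the 5 loci had 17 peaks in DMSO and 21 in MAK683. Of these GATA3 had 3 and 9, while GATA2 had 6 and 2. GATA4 had 6 and 7 such peaks, and 8 and 25 with −log10 q of 5 or more. Most of the 6 and 7 strong peaks at GATA4 lay near start sites of other coding genes, and without those 1 and 3 were left, or 2 and 21 with −log10 q of 5 or more.

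Where both libraries had a peak, the median height ratio over the loci together was close to that of the genome, though a larger share was higher. The median log2 ratio over the 36 shared regions was -0.39 (order-statistic interval -0.55 to 0.24), against -0.33 over 57983 shared regions of the genome. Of the 36, 14 were higher in MAK683, beside 23.8% in the genome. At GATA3, 5 of 6 were higher, with a median of 0.76. At GATA2, 10 of 13 were lower, with a median of -0.43. The GATA4 locus held both directions. All 4 shared regions inside GATA4 or at its start sites were higher, each with an interval that included 0, and all 7 in its downstream flank were lower. Those 7 count in the median over the 36.

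That downstream flank contains the promoters of other genes. The region at the NEIL2 TSS (chr8:11626579-11628350), a DNA repair gene, had 34 tags in DMSO and 17 in MAK683, a log2 ratio of -1.14 (-1.98 to -0.30). The tallest region of the locus, at 48 and 36 tags, lay at FDFT1, a gene of sterol synthesis, with a log2 ratio of -0.55 (-1.18 to 0.07). Introns of FDFT1 held 2 more regions past 2-fold lower, with log2 ratios of -1.31 (-2.51 to -0.11) and -1.04 (-1.78 to -0.29). At GATA4 itself, without peaks near start sites of other coding genes, the locus had 5 peaks in DMSO and 36 in MAK683. At GATA5 the tallest DMSO region, at 25 tags and 16 in MAK683 (chr20:61074544-61075572), lay upstream of the gene and had a log2 ratio of -0.78 (-1.69 to 0.12).

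GATA motifs were counted under the peaks of the 5 loci together and of each locus. In 300 bases centred on the summit, 25.8% of the 62 DMSO peaks and 23.3% of the 120 MAK683 peaks at the loci held a GATA motif. Over all peaks the shares were 29.2% and 31.4%. The loci differed in DMSO, with 15.4% of 26 peaks at GATA2, 41.7% of 12 at GATA3, 30.8% of 13 at GATA4, 22.2% of 9 at GATA5 and 1 of 2 peaks at GATA6. In MAK683 the shares by locus lay between 16.7% at GATA5 and 33.3% of 6 peaks at GATA6. In MAK683-only regions the motif lay in 24.3% of 74 regions at the loci and in 35.6% of those in the genome. The loci were richer in GC, with a median of 59.8% and 55.0% in the 2 libraries against 51.3% and 50.3% over all peaks. CG dinucleotides numbered 10 and 7 at the loci and 4 and 4 over all peaks, as medians.

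Other genes with a GATA-type zinc finger were read beside the background, in which 13291 of 16946 promoters were lower in MAK683. Of GATA1, TRPS1, GATAD1, GATAD2A and GATAD2B, 4 had a promoter peak in both libraries and all 4 were lower, with a median log2 ratio of -0.76. The intervals of GATAD1 (-1.34 to 0.08) and GATAD2A (-1.25 to 0.09) included 0. TRPS1 had 27 tags in DMSO and 16 in MAK683, a log2 ratio of -0.89 (-1.79 to -0.00085), which barely excluded 0. GATAD2B, a subunit of the NuRD complex, had 39 tags in DMSO and 23 in MAK683, a log2 ratio of -0.90 (-1.64 to -0.16). GATA1, the erythroid factor, had no peak in either library.

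Genes whose products act together with GATA factors were taken as a list of 25. A promoter peak was called at 23 of them in DMSO and at 24 in MAK683, and 12 were higher and 12 lower, beside 21.5% of all genes that were higher. Their median log2 ratio was -0.03. At least 2-fold higher were 4, namely RUNX1, FLI1, TBX5 and FOXA2, beside 3.25% of all genes, and none was 2-fold lower, beside 5.21%. RUNX1, a blood lineage factor, had 13 tags in DMSO and 33 in MAK683, a log2 ratio of 1.21 (0.28 to 2.13). FLI1, an ETS factor of blood and endothelium, had 11 and 28 tags with a log2 ratio of 1.21 (0.20 to 2.22), but at different start sites in the libraries. TBX5, a cardiac partner of GATA4, had no DMSO peak and 25 tags in MAK683. FOXA2, an endoderm factor, had 8 and 18 tags with a log2 ratio of 1.03 (-0.17 to 2.23), which did not differ beyond counting error. HNF4A had no peak in either library.

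A further list held 11 genes linked to GATA4 in senescence. Promoter peaks were called at 6 of them in DMSO and 8 in MAK683, and 3 were higher and 5 lower. A peak in both libraries was called at 6 of 11, beside 74.7% of all genes, and the 3 of 8 that were higher stand beside 21.5%. The 2 genes at least 2-fold higher, beside 3.25% of all genes, were chemokine genes: CXCL1 had no DMSO peak and 14 tags in MAK683, and CCL2 had no DMSO peak and 19 tags. TRAF3IP2, an adaptor of cytokine signalling, was 2-fold lower with 46 tags in DMSO and 25 in MAK683, a log2 ratio of -1.02 (-1.72 to -0.32). IL6 had 14 and 15 tags, a log2 ratio of -0.04 (-1.09 to 1.01). CXCL8, IL1A and CCL20 had no promoter peak in either library. CDKN2A, which encodes p16, had 31 and 41 tags at its tallest peaks, which lay at different places, and its log2 ratio was 0.27 (-0.41 to 0.94).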

How the data were processed

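ATAC-seq was performed on G401 cells treated with DMSO or MAK683 for 3 days, with 1 library each. The study's methods name Trim-galore for trimming and Bowtie2 for alignment to hg19. Narrow peaks were called by the authors in each library with MACS 2.1.1.20160309 per the file headers, whereas the methods name 2.2.7.1. They used no control and no local background, so regional coverage was not corrected. A shift of -100 bp and an extension to 200 bp centred the tags on the Tn5 cut. The study's methods name paired-end sequencing, and the peak caller read the tags as single ends. It kept 1 tag per position, and the q cutoff was 0.05. The deposited pileup is a signal in whole tags, without depth scaling. Fold enrichment, as deposited, is a ratio over a genome-wide background. The deposited −log10 p and −log10 q values also grow with depth.

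Pileup was divided by the tags after filtering (16598348 in DMSO, 18265284 in MAK683) and multiplied by 1000000. Peaks off the main chromosomes were left out. Genes came from GENCODE 44 lifted to GRCh37, the build of the files. A promoter was 3 kb around any TSS. Peaks that overlapped by 1 bp were merged into regions. Where a peak was missing in 1 library, the lowest called height (0.361 RPM, 6 DMSO tags) stood in its place when a gene was counted as higher, lower or 2-fold changed. Heights have exact Clopper-Pearson intervals, shares have Wilson intervals, and log2 ratios have intervals from the Poisson error of both tag numbers. The ratio and interval code was tested on simulated data, with mean heights above the median peaks here (11 DMSO and 10 MAK683 tags). Each simulated site had a single peak per library. That test therefore did not cover lower peaks or the choice of the tallest peak. The members and gene lists were chosen with earlier results of these data known. Among the peaks, the rule named the tallest region of each library and of each 1-library class at a locus, and shared regions past 2-fold whose interval excluded 0. Alternatives were other windows, start sites, scalings, peak filters, flanks and overlap rules, and, chosen after seeing the data, leaving out peaks near start sites of other coding genes. RefSeq promoter sequences were given for 3 of the 5 members, and the windows shown were taken for these. PECAM1, a marker on the list, was not analysed here. Python 3.11.15, numpy 2.4.6, scipy 1.17.1 and matplotlib 3.10.9 were used.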

Additional observations from a re-analysis of the deposited data

How the results depend on the processing

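Of 86 values from alternative settings, 73 moved by less than their counting interval or, for counts, by less than 1.5 times. With −log10 q of at least 5, peaks at the loci numbered 40 in DMSO and 63 in MAK683, with 15 DMSO-only and 39 MAK683-only regions. With at least 10 they numbered 17 and 21, with 6 DMSO-only and 11 MAK683-only regions, and 3 genes kept a DMSO promoter peak. With flanks of 100 kb there were 103 DMSO and 172 MAK683 peaks, with 28 DMSO-only and 98 MAK683-only regions. When shared peaks had to overlap by 50% of each, 47 regions were DMSO-only and 105 MAK683-only. With peaks of at least 0.5 RPM, 12 were DMSO-only and 49 MAK683-only. By the canonical TSS only, GATA2 had a log2 ratio of -2.08, where the DMSO value is the summit of the broad peak that reaches that TSS. Within 1 kb GATA5 had -0.58, with the MAK683 library set to the lowest called height. The median of the 5 genes lay between -0.44 and 0.19 over the alternatives. No paired analysis was possible because each group has 1 library. Peaks of few tags limit every comparison, and variation between cultures could not be measured.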
